A study of Gallus gallus with 8 samples.

Results

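Solute carriers are the membrane proteins that move sugars, amino acids, ions, metals, vitamins, nucleosides and drugs across cell and organelle membranes. The genes described here are all named genes of the array whose symbol has the form SLC, a family number, the letter A and a member number, without the mitochondrial iron carrier SLC25A37. Names came from the RefSeq accession, gene number or symbol given for each probe. The rule found 135 genes among 7823 gene names, measured by 271 probes, and 102 of them could be tested. Names of the families SLC35B, SLC35C or SLC8B lie outside the rule, and the red cell anion exchanger SLC4A1 had no matching probe name and is not analysed here.

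The samples were whole blood, with its red cells, and the mononuclear fraction of the same blood (PBMC) from 4 male broilers, meat-type chickens, at an age of 9 weeks. Each sample was hybridised to 1 one-colour Agilent array, which gives 4 arrays per group. The birds were kept and fed conventionally, no treatment is named, and PBMC were isolated right after sampling on a Ficoll density gradient. Both samples came from the same birds, and replicate numbers identify them. The comparison asked how whole blood and PBMC transcriptomes differ.

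Solute carriers work as uniporters, as symporters that use the sodium or proton gradient, or as exchangers, and most are specific to a class of substrate. Red cells of birds keep their nucleus and mitochondria, and depend on anion exchange for carbon dioxide transport and on carriers for amino acids and nucleosides. In mammals, lymphocytes take up more glucose and amino acids once activated, monocytes and macrophages use carriers of the phagosome and lysosome, and platelets, which correspond to avian thrombocytes, take up serotonin. The roles given below are known mostly from mammals.

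A level is the log2 signal of a probe minus the log2 of its array's 75th percentile, and a difference is the PBMC mean minus the whole blood mean of these levels, with the standard error (SE) of a limma fit over 8 arrays. A gene was called where its Benjamini-Hochberg adjusted p over all 33761 tested features was under 0.05. Levels of different genes come from different probes and are not compared. Precision is limited by the number of arrays, and p-values measure the spread between 4 birds. The fit was unpaired, with no term for the bird, and a fit with the bird as a block is among the alternatives. Where a gene was dim in a group, its difference depends on the background correction, so the difference is also given after normexp correction (offset 50) and in the authors' deposited values, which carry no background correction, wherever these moved it by over 1.5-fold.

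Most features of the array differed between the sample types, with 39.7% of those tested higher and 39.4% lower in PBMC. Most cell markers differed too. Of 16 tested red cell genes 14 were lower in PBMC. GYPC, well above background on 1 of 4 whole blood arrays, went the other way (2.73 ± 0.35, adjusted p = 7.59e-05). RHAG spread from -0.76 to 4.38 in PBMC, and its difference of -2.11 ± 1.07 missed the threshold (adjusted p = 0.0965). The summed level of the red cell list was 3404 to 3711 in whole blood and 402 to 992 in PBMC. Summed levels add signals taken as multiples of the array's 75th percentile. All 12 tested T cell genes were higher in PBMC (summed level 92.2 to 119 against 328 to 429), as were 7 of 8 B cell genes (7.98 to 11.7 against 40.5 to 69.3), all 9 tested monocyte genes (21.1 to 29.1 against 61.2 to 80.3) and all 7 tested thrombocyte genes (53.4 to 87.3 against 239 to 345). Of 6 heterophil genes 3 were lower and none higher (26.1 to 35.3 against 7.41 to 17.2). The monocyte markers CD14 and MARCO were not well above background on all arrays of either group and were not tested. The part of each cell type in the results below was not tested, and in such mixed samples fewer cells of a type and less RNA per cell cannot be told apart.

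Of the 135 carriers, 84 exceeded background clearly on all 8 arrays and 21 on none. On single arrays between 94 and 102 were detected in whole blood and between 97 and 105 in PBMC. In whole blood these were 69.6% to 75.6% of the carriers, where 64.5% to 70.9% of all probes were detected. In PBMC they were 71.9% to 77.8%, against 66.6% to 72.1% of all probes. Each carrier was counted by its brightest probe, unlike the share over all probes. The 21 undetected genes included 9 amino acid carriers, among them the glutamate carrier SLC1A1, the glycine carrier SLC6A9 and the intestinal peptide carrier SLC15A1. The noradrenaline carrier SLC6A2 and the acetylcholine carrier SLC18A3 also stayed at background. Another 12 were detected on some arrays, without reaching all 4 of a group, and were not tested.

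Solute carriers split in both directions. Of 102 tested, 45 were higher in PBMC (39.7% of all tested features were), 34 were lower (39.4% of all features) and 23 did not pass. The 79 called carriers make 77.5% of those tested, close to the 79.1% of all tested features and the 79.7% of tested named genes that were called. The median difference was 0.16 over the carriers and 0.0026 over all tested features, and scaling by the array median in place of the 75th percentile moved the latter to -0.30. At least 2-fold differences were found for 41 carriers higher in PBMC (32.8% of all features) and 29 lower (28.7% of all features), where 61.5% of all features passed in either direction. The groups did not overlap for 78 of the 102 (73.3% of all features). Groups without overlap go the same way in every bird by definition, so agreement of birds adds no separate support to such calls. Among the 79 called carriers, 78 went the same way in all 4 birds, and the share over all called features was not worked out. The exception, the phosphate carrier SLC34A1, was higher in PBMC in 3 of 4 birds (0.44 ± 0.17, adjusted p = 0.0377), and its call ended with the bird as a block (adjusted p = 0.0502) and under most other alternatives.

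**Figure D1:**
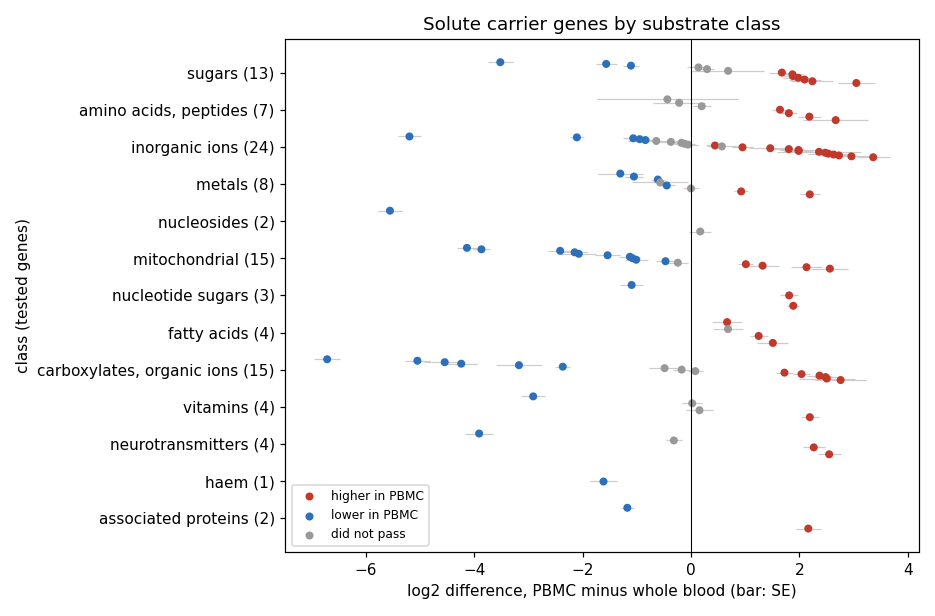
Differences between PBMC and whole blood (log2, horizontal axis, bars are SE) for the 102 tested solute carrier genes, grouped by substrate class with the number of tested genes. Red points were higher and blue points lower in PBMC, grey points did not pass; with the processed signal the extremes are SLC22A23 at -6.71 and SLC24A4 at 3.36.

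Of 13 tested sugar carriers, 7 were higher in PBMC, 3 were lower and 3 did not pass, with a median difference of 1.68. The 10 called make 76.9%, near the 79.1% of all tested features, of which 39.7% were higher and 39.4% lower. The gene named SLC2A14 here, for which the reference lists GLUT3 and SLC2A3 as synonyms, a high-affinity glucose carrier, stood at 1.38, 1.54, 1.67 and 1.74 in whole blood of birds 1 to 4 and 3.57, 3.51, 3.102 and 3.66 in their PBMC. Every PBMC level lay above every whole blood level, and the difference was 1.88 ± 0.16 (adjusted p = 6.61e-06), or 3.68-fold higher in PBMC. SLC2A6, a lysosomal member of the glucose carrier family, differed by 1.98 ± 0.29 (adjusted p = 1.83e-04), with levels from -2.85 to -1.74 in whole blood and from -0.71 to 0.36 in PBMC. SLC37A2, a sugar phosphate exchanger known from macrophages, stood at -0.34, 0.12, 0.15 and 0.84 in whole blood of birds 1 to 4 and 1.77, 2.21, 2.88 and 2.29 in their PBMC and differed by 2.09 ± 0.30 (adjusted p = 1.47e-04). Its lowest PBMC level lay above its highest whole blood level. The fructose carrier SLC2A5 was dim in whole blood and differed by 2.24 ± 0.39 (adjusted p = 5.41e-04), or by 0.74 and 0.89 with normexp and in the deposited values.

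SLC2A12, another glucose carrier, exceeded background on each PBMC array but on none from whole blood, a pattern found for 2 carriers and for 2.44% of all tested features. Its whole blood mean was -6.43 ± 0.48 and its PBMC mean -3.38 ± 0.64 (SD, n = 4). With the processed signal it was 6.87-fold higher in PBMC by its bound (adjusted p = 3.50e-05). Bounds of this kind set the mean of the brighter group against a mean over the arrays of the dimmer group. On each array this took the probe's own signal or the lowest signal of any probe well above background, whichever was higher. The bounds are not strict lower limits, because some probes with more than this lowest signal were not well above background. SLC24A4 missed this on 1 whole blood array with levels of -5.49 or more, where the lowest signals were -7.37 to -6.18. These bounds hold for the processed signal only, since normexp and the deposited values gave smaller differences. The adjusted p beside a bound belongs to the difference without the bound. Genes with a bound were tested only through the group where they were detected, so this p adds no separate support to the detection pattern. For SLC2A12 the log2 difference was 0.79 and 0.97 with normexp and in the deposited values. For SLC2A1, the widely expressed basal glucose carrier GLUT1, the single probe gave -2.68, -4.91, -4.96 and -1.85 in whole blood of birds 1 to 4 and -3.14, -3.14, -2.90 and -2.50 in their PBMC. Birds 2 and 3 were low and birds 1 and 4 high in whole blood only, the groups overlapped, and the difference of 0.68 ± 0.67 did not pass (adjusted p = 0.366). SLC2A8, an intracellular glucose carrier, did not pass either (0.29 ± 0.14, adjusted p = 0.0726), and its 4 probes ran from -1.14 to 0.29. It was called higher with quantile normalization (0.56, adjusted p = 0.00339) and cyclic loess (0.54, adjusted p = 0.00464), and was -0.32 with the mean of its probes (adjusted p = 0.0724).

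Sugar carriers of intracellular membranes lay on both sides, with SLC2A6 among those higher in PBMC and SLC37A4 and SLC17A5 among those lower. SLC37A4, which brings glucose 6-phosphate into the endoplasmic reticulum, stood at -1.81, -1.94, -1.29 and -1.89 in whole blood of birds 1 to 4 and -5.21, -5.32, -4.77 and -5.71 in their PBMC. Whole blood and PBMC were far apart, with a difference of -3.52 ± 0.23 (adjusted p = 1.39e-06), and -1.84 and -2.27 with normexp and in the deposited values. SLC17A5, which exports sialic acid from lysosomes, fell from 2.61 ± 0.32 (SD, n = 4) to 1.05 ± 0.21, a difference of -1.57 ± 0.19 (adjusted p = 5.79e-05).

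Of 20 amino acid and peptide carriers only 7 could be tested. Of these 4 were higher in PBMC, none was lower and 3 did not pass. The 4 called make 57.1%, where 79.1% of all tested features were called, 39.7% higher and 39.4% lower. No test sets the class against them. SLC7A5, the light chain of the large neutral amino acid exchanger LAT1, stood at -1.26, -0.92, -1.08 and -0.34 in whole blood of birds 1 to 4 and 1.24, 1.29, 1.11 and 1.498 in their PBMC. Bird 4 had the highest level in both sample types, the groups did not overlap, and the difference was 2.18 ± 0.21 (adjusted p = 1.16e-05), or 4.54-fold higher in PBMC. Among the other called members, SLC38A1, a sodium-coupled carrier of glutamine, differed by 1.80 ± 0.15 (adjusted p = 4.62e-06) and SLC15A4, a lysosomal carrier of histidine and peptides needed for endosomal Toll-like receptor signalling in mice, by 1.64 ± 0.15 (adjusted p = 9.84e-06). SLC1A6, a glutamate carrier known from the cerebellum, stood at -6.01, -3.76, -4.85 and -2.98 in whole blood of birds 1 to 4 and -2.62, -1.51, -1.48 and -1.31 in their PBMC. It was well above background on 3 of 4 whole blood arrays, and differed by 2.67 ± 0.60 (adjusted p = 0.00278). Its difference was 1.39 and 1.57 with normexp and in the deposited values, and 1.96 and 3.38 in slide rows 1 and 2 alone. The heavy chain SLC3A2 and the carriers SLC7A6 and SLC38A2 had no matching probe name and are not analysed here.

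SLC7A14, a lysosomal relative of the cationic amino acid carriers, differed far more between birds than between sample types. Its levels were 0.10, -4.19, -1.12 and -4.14 in whole blood of birds 1 to 4 and -0.39, -4.62, -1.22 and -4.87 in their PBMC. Birds 1 and 3 were high and birds 2 and 4 low in both sample types. A second probe of the gene gave 0.08, -4.36, -0.99 and -4.00 in whole blood and -0.52, -5.04, -1.44 and -5.11 in PBMC, in the same order of birds. All arrays shared 1 slide, whose row 1 held birds 2 and 4 and row 2 birds 1 and 3, so for this gene the birds and the slide row cannot be told apart. The difference of -0.44 ± 1.30 between sample types did not pass (adjusted p = 0.766), but with the bird as a block it did (-0.44, adjusted p = 0.0319), lower in PBMC in 4 of 4 birds. The gene was singled out after its values were seen.

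**Figure D2:**
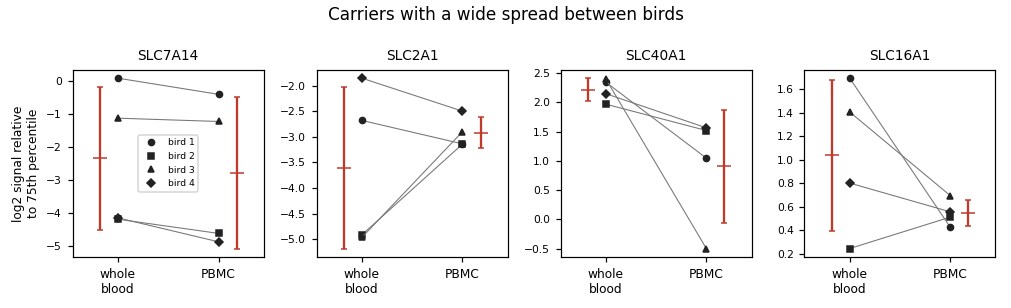
Levels (log2 signal minus that of the array's 75th percentile, vertical axes) of 4 carriers in whole blood and PBMC of each bird, with lines joining samples of the same bird and red bars for mean and SD. SLC7A14 separates birds 1 and 3 from birds 2 and 4 in both sample types, SLC2A1 and SLC16A1 spread mainly in whole blood and SLC40A1 in PBMC.

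Inorganic ion carriers were the largest class, with 27 genes, 24 of them tested. Of these 13 were higher in PBMC and 5 lower, 6 did not pass, and the median difference was 0.76. The 18 called make 75%, near the 79.1% of all tested features, of which 39.7% were higher and 39.4% lower. SLC24A4, which exchanges sodium for calcium and potassium, stood at -5.49, -4.16, -4.59 and -4.80 in whole blood of birds 1 to 4 and -1.77, -1.32, -0.85 and -1.66 in their PBMC. The groups were over 2 log2 units apart, at -4.76 ± 0.55 against -1.40 ± 0.42 (SD, n = 4), although 1 whole blood array was not well above background. Its difference of 3.36 ± 0.30 (adjusted p = 8.38e-06), or 10.3-fold higher in PBMC, was 1.93 and 2.11 with normexp and in the deposited values, where other carriers, SLC24A2 among them, had higher values. Its relative SLC24A2 stood at -3.98, -3.44, -3.37 and -2.79 in whole blood of birds 1 to 4 and -1.30, -0.58, 0.32 and -0.17 in their PBMC and differed by 2.96 ± 0.36 (adjusted p = 5.63e-05), or 2.27 and 2.31 under these corrections. In the same direction, SLC8A1, the sodium-calcium exchanger of the plasma membrane, differed by 1.98 ± 0.34 (adjusted p = 5.45e-04).

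SLC4A2, the chloride-bicarbonate exchanger AE2, went the other way. It stood at 4.94, 5.46, 4.95 and 5.52 in whole blood of birds 1 to 4 and -0.13, 0.18, -0.33 and 0.38 in their PBMC. Within each sample type the birds lay within 1 log2 unit, and the difference between sample types was -5.19 ± 0.21 (adjusted p = 2.36e-07), or 36.6-fold lower in PBMC. A second detected probe of SLC4A2 differed by only -0.39 and was higher in PBMC in 1 of 4 birds. The mean of the probes differed by -2.79 (adjusted p = 8.25e-07). The size of this fall and its direction in every bird therefore rest on the brighter probe. SLC9A8, a sodium-proton exchanger of the Golgi, was lower in PBMC (-2.11 ± 0.13, adjusted p = 1.23e-06) and by -2.78 with the mean of its probes.

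SLC12A2, the sodium-potassium-chloride cotransporter NKCC1, stood at -0.56, -0.59, -0.51 and -1.23 in whole blood of birds 1 to 4 and -1.94, -1.72, -1.64 and -1.86 in their PBMC. Every PBMC level was below every whole blood level (-1.07 ± 0.19, adjusted p = 5.81e-04).

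**Figure D3:**
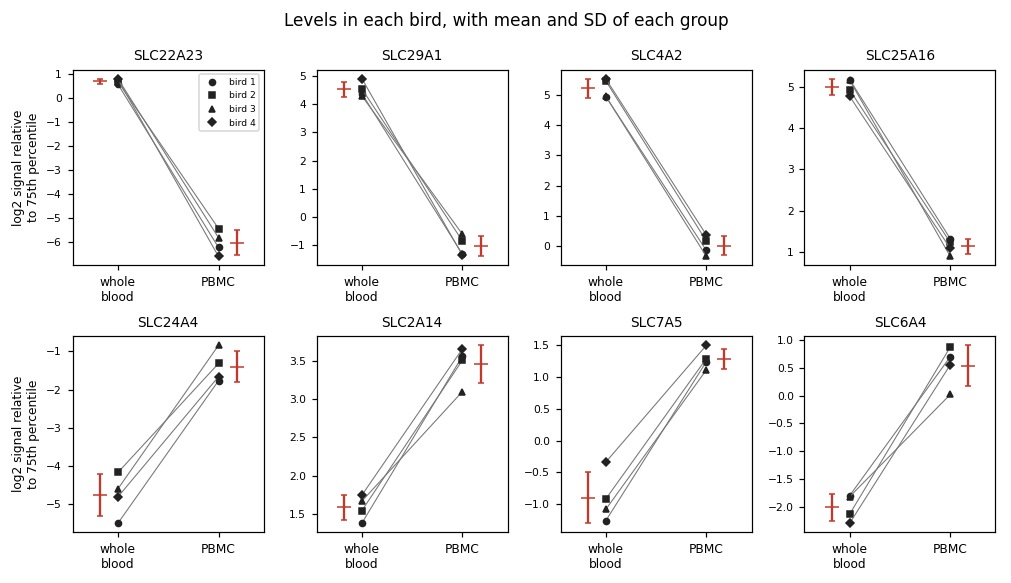
Levels (log2 signal minus that of the array's 75th percentile, vertical axes) of 8 carriers in whole blood and PBMC of each bird, with lines joining samples of the same bird and red bars for mean and SD. The 4 genes of the upper row were lower and the 4 of the lower row higher in PBMC in every bird, and the groups do not overlap for any of the 8.

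Metal carriers went both ways. Of 8 tested, 2 were higher in PBMC and 4 lower, 2 did not pass, and the median difference was -0.51. The 6 called make 75%, near the 79.1% of all tested features, of which 39.7% were higher and 39.4% lower. Ferroportin, SLC40A1, the iron exporter of the plasma membrane, stood at 2.34, 1.97, 2.40 and 2.15 in whole blood of birds 1 to 4 and 1.05, 1.52, -0.50 and 1.56 in their PBMC. PBMC of bird 3 lay well below the other PBMC samples, which had levels of 1.05 to 1.56. The difference was -1.31 ± 0.42 (adjusted p = 0.0172), and all 4 probes of the gene gave negative differences, from -1.18 to -1.65. The call ended with quantile normalization (-1.05, adjusted p = 0.0571), without bird 1 (-1.31, adjusted p = 0.0621) and with only slide row 1 (-0.52, adjusted p = 0.065), against -2.09 in row 2. On the same arrays, PBMC of bird 3 had the lowest mean level of the red cell list, 0.80 against 1.81 to 2.18 in the other birds. Other carriers that were lower in PBMC differed in this, with PBMC of bird 3 lowest for SLC46A3 (1.40) and highest for SLC29A1 (-0.61). A link between SLC40A1 and the red cell list was not tested.

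SLC30A5, which moves zinc into the Golgi, was lower in PBMC (-1.05 ± 0.16, adjusted p = 2.44e-04). SLC11A1, or NRAMP1, the divalent metal carrier of the phagosome, stood at -1.62, -1.66, -1.63 and -1.54 in whole blood of birds 1 to 4 and -2.23, -2.12, -2.12 and -2.43 in their PBMC. The probe used was lower in PBMC (-0.61 ± 0.13, adjusted p = 0.00174), but the other detected probes differed by 0.0063 and 0.51, and with the mean of the probes the call ended (-0.03, adjusted p = 0.839), and so it did with only the arrays of slide row 2 (-0.55, adjusted p = 0.0551). Of the importing family of zinc carriers, SLC39A13 differed by 2.19 ± 0.19 (adjusted p = 5.91e-06, 0.87 and 0.98 with normexp and in the deposited values) and SLC39A9 by 0.92 ± 0.13 (adjusted p = 1.34e-04). For SLC39A9 the direction depends on the probe, since the others gave -1.38 and -0.71 and the mean of the probes -0.39 (adjusted p = 0.0907). SLC48A1, which moves haem out of lysosomes, stood at 5.46, 5.15, 4.94 and 4.28 in whole blood of birds 1 to 4 and 3.58, 3.28, 3.33 and 3.18 in their PBMC. All of its whole blood levels lay above its PBMC levels (-1.62 ± 0.24, adjusted p = 2.13e-04), and its 3 probes gave -1.62 to -1.71.

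Among nucleoside carriers, SLC29A1, the equilibrative nucleoside carrier ENT1, stood at 4.37, 4.54, 4.29 and 4.91 in whole blood of birds 1 to 4 and -1.31, -0.84, -0.61 and -1.35 in their PBMC. The groups were more than 4 log2 units apart in every bird, and the difference of -5.55 ± 0.22 (adjusted p = 1.93e-07), or 47-fold lower in PBMC, changed by less than 1.5-fold under all 25 alternatives. SLC29A4, a carrier of monoamines and adenosine in the same family and the only other nucleoside carrier tested, did not pass (0.17 ± 0.20, adjusted p = 0.448).

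All 15 mitochondrial carriers were tested, and 10 were lower in PBMC and 4 higher, 1 did not pass, and the median difference was -1.08. Over all tested features 39.4% were lower and 39.7% higher, and no test sets the class against them. SLC25A16, a carrier linked to coenzyme A, stood at 5.17, 4.92, 5.15 and 4.76 in whole blood of birds 1 to 4 and 1.32, 1.23, 0.89 and 1.09 in their PBMC. It differed by -3.87 ± 0.16 (adjusted p = 2.21e-07), or 14.6-fold lower in PBMC, with no overlap. SLC25A42, which carries coenzyme A and adenosine nucleotides, exceeded background on each whole blood array but on none from PBMC, as did 3 carriers in all and 1.97% of all tested features. Its whole blood mean was -3.67 ± 0.11 and its PBMC mean -7.80 ± 0.33 (SD, n = 4). With the processed signal it was 6.42-fold lower in PBMC by its bound, which is no strict limit (adjusted p = 2.91e-07 for the difference without the bound). It was tested only through whole blood, where it was detected. The log2 difference was -0.97 and -1.32 with normexp and in the deposited values.

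SLC25A32, a mitochondrial carrier of folate and FAD, was lower in PBMC (-2.41 ± 0.22, adjusted p = 9.07e-06), with levels from 0.49 to 1.23 in whole blood and from -2.04 to -1.31 in PBMC. The phosphate carrier SLC25A3, which supplies ATP synthesis, stood at 5.45, 5.52, 5.28 and 5.42 in whole blood of birds 1 to 4 and 4.27, 4.12, 4.52 and 4.43 in their PBMC. The spread within each group was under 0.5 log2 units. Its difference was -1.08 ± 0.14 (adjusted p = 7.86e-05), its 5 probes gave -1.03 to -1.30, and cyclic loess gave -0.49 with the call kept.

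The ADP/ATP carriers, which exchange cytosolic ADP for mitochondrial ATP, were among the 4 of the class that were higher in PBMC. The gene named SLC25A6 here, for which the reference lists SLC25A5 as a synonym, stood at 4.32, 4.43, 4.35 and 4.13 in whole blood of birds 1 to 4 and 5.36, 5.09, 5.37 and 5.46 in their PBMC. It was higher in PBMC by 1.01 ± 0.14 (adjusted p = 1.19e-04). SLC25A4, the form of heart and skeletal muscle in mammals, stood at -3.47, -4.10, -3.91 and -3.84 in whole blood of birds 1 to 4 and -1.09, -2.33, -1.37 and -2.01 in their PBMC and differed by 2.13 ± 0.28 (adjusted p = 9.09e-05), or 1.30 and 1.40 with normexp and in the deposited values. SLC25A22, a mitochondrial glutamate carrier, differed by 2.56 ± 0.34 (adjusted p = 9.55e-05). SLC25A38 had no matching probe name and is not analysed here.

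All 3 nucleotide sugar carriers, which feed glycosylation in the Golgi, were called, as were 79.1% of all tested features. SLC35A1, the carrier of CMP-sialic acid, stood at -0.78, -0.69, -0.76 and -0.72 in whole blood of birds 1 to 4 and 1.15, 1.096, 1.20 and 1.14 in their PBMC. The birds lay close together in each sample type, and PBMC were higher by 1.89 ± 0.11 (adjusted p = 9.93e-07). SLC35A3, a carrier of UDP-N-acetylglucosamine, was also higher (1.81 ± 0.16, adjusted p = 7.58e-06; 1.098 and 1.14 with normexp and in the deposited values). SLC35A4 was lower in PBMC (-1.097 ± 0.21, adjusted p = 0.00105), without a call in slide row 2 alone (-0.81, adjusted p = 0.0668).

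Carriers of carboxylates, organic ions and drugs split evenly. Of 15 tested, 6 were higher in PBMC, 6 were lower and 3 did not pass. The 12 called make 80%, near the 79.1% of all tested features, of which 39.7% were higher and 39.4% lower. SLC22A23, a member of the organic ion family without an assigned substrate, stood at 0.56, 0.67, 0.80 and 0.77 in whole blood of birds 1 to 4 and -6.22, -5.43, -5.81 and -6.59 in their PBMC. SLC22A23 exceeded background on 1 of the 4 PBMC arrays, so the size of its difference of -6.71 ± 0.24 (adjusted p = 1.34e-07) depends on values near background. It was -3.98 and -4.56 with normexp and in the deposited values, where SLC29A1 and SLC4A2 had lower values. Averaged with its second probe, which exceeded background on 3 of 4 whole blood arrays and no PBMC array, it differed by -4.89.

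The multidrug and toxin extrusion carriers moved in opposite directions. SLC47A2 stood at -0.02, -0.25, -0.03 and -0.67 in whole blood of birds 1 to 4 and -5.13, -5.45, -5.74 and -4.85 in their PBMC and SLC47A1 at -4.59, -2.78, -3.01 and -2.38 in whole blood of birds 1 to 4 and -1.73, -0.49, 0.08 and -0.61 in their PBMC. In every bird SLC47A2 was lower and SLC47A1 higher in PBMC than in whole blood. The differences were -5.05 ± 0.23 (adjusted p = 3.47e-07) and 2.503 ± 0.52 (adjusted p = 0.00163). For SLC47A2 they were -3.12 and -3.65 with normexp and in the deposited values, and -1.95 when averaged over its 3 probes, of which 1 was detected. For SLC47A1 they were 1.80 and 1.86, and 1.81 when only probes with a RefSeq accession were named. SLC22A3, a carrier of organic cations, was higher in PBMC by 2.48 ± 0.21 (adjusted p = 5.64e-06, 1.86 and 1.89 under these corrections).

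Monocarboxylate carriers, which move lactate and pyruvate with a proton, differed by member. SLC16A3, or MCT4, known for lactate export from glycolytic cells, stood at -1.70, -1.33, -1.47 and -1.56 in whole blood of birds 1 to 4 and 0.05, 0.47, 0.02 and 0.29 in their PBMC. All PBMC levels lay above all whole blood levels (1.72 ± 0.16, adjusted p = 7.97e-06). SLC16A1, or MCT1, stood at 1.69, 0.25, 1.41 and 0.80 in whole blood of birds 1 to 4 and 0.43, 0.51, 0.70 and 0.56 in their PBMC. Whole blood of birds 1 and 3 was high and that of bird 2 low, and the difference of -0.49 ± 0.29 did not pass (adjusted p = 0.149). All 4 probes of SLC16A1 gave negative differences, from -0.49 to -1.46, and their mean was called (-1.06, adjusted p = 0.0219), as was the difference without bird 2 (-0.74, adjusted p = 0.0335) and with only slide row 2 (-0.99, adjusted p = 0.0163), against 0.01 in row 1. It was also called in the deposited values (-0.66), with median scaling and without the whole blood array of bird 2.

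Of this family, SLC16A4 and SLC16A8 exceeded background on each whole blood array but on none from PBMC. SLC16A4 stood at -3.21 ± 0.48 against -7.75 ± 0.75 (SD, n = 4) and was 8.82-fold lower in PBMC by its bound (adjusted p = 5.18e-06). SLC16A8, the lactate carrier of the retinal pigment epithelium, stood at -3.32 ± 0.51 against -7.56 ± 0.39 and was 8.18-fold lower by its bound (adjusted p = 1.59e-06). SLC16A7, or MCT2, was well above background on all PBMC arrays alone, at -7.19 ± 0.93 against -4.43 ± 0.62, 4.49-fold higher in PBMC by its bound (adjusted p = 5.03e-04). These bounds hold for the processed signal only and are not strict limits, and the adjusted p values belong to the differences without the bounds. Each of these genes was tested only through the group where it was detected. With normexp and in the deposited values the log2 differences were -1.32 and -1.74 for SLC16A4, -0.94 and -1.34 for SLC16A8 and 0.53 and 0.70 for SLC16A7, all with the call kept. SLC16A4 differed by -3.74 and -5.35 in slide rows 1 and 2 alone, and a second probe of SLC16A8 by -2.25.

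Of 4 tested carriers of the vitamin families, 1 was higher in PBMC, 1 was lower and 2 did not pass. Over all tested features 39.7% were higher and 39.4% lower. SLC19A1, the reduced folate carrier, stood at -0.64, -0.56, -0.90 and -0.25 in whole blood of birds 1 to 4 and 1.70, 1.39, 1.76 and 1.57 in their PBMC. It was higher in PBMC in every bird (2.19 ± 0.17, adjusted p = 3.26e-06). SLC46A3, a lysosomal member of the family that holds the proton-coupled folate carrier, stood at 4.93, 4.85, 4.59 and 5.18 in whole blood of birds 1 to 4 and 2.15, 2.17, 1.40 and 2.18 in their PBMC and was lower in PBMC (-2.91 ± 0.22, adjusted p = 2.66e-06). Of 4 tested fatty acid carriers 3 were higher in PBMC, among them SLC27A1 (1.51 ± 0.28, adjusted p = 9.21e-04) and SLC27A4 (1.25 ± 0.16, adjusted p = 8.87e-05), which bring long-chain fatty acids into the cell. SLC27A2 and SLC27A5, whose probes were named by symbol, gave nearly equal differences of 0.66 ± 0.27 and 0.68 ± 0.28 on either side of the threshold (adjusted p = 0.047 and 0.0501), and both calls depend on the setting. Their levels lay close on every array, from -2.60 to -1.09 and from -2.79 to -1.12. Whether their probes measure separate transcripts was not tested.

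Among carriers of neurotransmitters, SLC6A4, the serotonin carrier of the plasma membrane, stood at -1.80, -2.13, -1.82 and -2.30 in whole blood of birds 1 to 4 and 0.70, 0.87, 0.02 and 0.55 in their PBMC. Its difference was 2.55 ± 0.21 (adjusted p = 5.01e-06), and 1.40 with probes named by RefSeq accession only. SLC18A2, which loads serotonin and other monoamines into vesicles and granules, stood at 2.04, 1.97, 2.35 and 2.39 in whole blood of birds 1 to 4 and 4.57, 4.52, 3.94 and 4.78 in their PBMC and differed by 2.26 ± 0.21 (adjusted p = 8.36e-06). Both were higher in PBMC in every bird, and PBMC of bird 3 was the lowest of the 4 for both. PBMC of bird 3 also had the lowest mean level of the thrombocyte list, 3.40 against 3.75 to 4.12 in the other birds, and of the red cell list. In whole blood the thrombocyte list was lowest in bird 1, at 1.02 against 1.60 to 1.74, where SLC6A4 was at its highest. SLC6A13, a carrier of GABA, stood at 0.45, 0.58, 0.98 and 0.02 in whole blood of birds 1 to 4 and -3.41, -2.87, -3.76 and -3.56 in their PBMC. It was lower in PBMC (-3.91 ± 0.25, adjusted p = 1.31e-06, -2.94 with normexp). The scaffold protein SLC9A3R1, or NHERF1, which carries a carrier's name but binds the sodium-proton exchanger SLC9A3, was higher in PBMC (2.16 ± 0.24, adjusted p = 2.66e-05), and SLC4A1AP, the adaptor kanadaptin, was lower (-1.18 ± 0.12, adjusted p = 1.79e-05).

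Carriers whose names lie outside the rule were also split. Of 40 listed, 17 were matched to a probe and 15 tested, with 6 higher in PBMC, 5 lower and 4 not passing. Over all tested features 39.7% were higher and 39.4% lower. The sphingosine 1-phosphate family members SPNS3 (2.38 ± 0.29, adjusted p = 5.09e-05) and SPNS2 (2.25 ± 0.43, adjusted p = 0.00101; 0.55 and 0.67 with normexp and in the deposited values) and the mitochondrial serine carrier SFXN1 (2.26 ± 0.19, adjusted p = 6.01e-06) were higher. TMEM104 (-2.52 ± 0.14, adjusted p = 6.79e-07), the lysosomal protein MFSD12 (-2.26 ± 0.24, adjusted p = 2.03e-05) and the mitochondrial ion exchanger LETM1 (-1.99 ± 0.14, adjusted p = 1.85e-06) were lower.

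Proteins that chaperone carriers, drive their gradients or trap their substrates were listed too, and of 13 tested 8 were higher and 5 lower, where 39.7% and 39.4% of all features were. EMB, a chaperone of monocarboxylate carriers, was higher in PBMC by 2.06 ± 0.20 (adjusted p = 1.46e-05). BSG of the same list was lower (-0.59 ± 0.21, adjusted p = 0.0268), with overlapping groups. BSG was added after its values were seen and was not followed under the alternatives. The calcium pump ATP2B4 differed by 2.41 ± 0.39 (adjusted p = 3.30e-04), or 0.60 and 0.75 with normexp and in the deposited values, and 1.68 and 3.14 in slide rows 1 and 2 alone. The hexokinases, which trap glucose as glucose 6-phosphate, moved in opposite directions. HK1 stood at -0.37, -0.13, -0.31 and 0.14 in whole blood of birds 1 to 4 and 1.84, 2.29, 2.15 and 2.05 in their PBMC, and HK2 at 1.34, 0.71, -0.01 and 1.66 in whole blood of birds 1 to 4 and -1.62, -1.20, -1.48 and -1.51 in their PBMC. HK1 was higher in PBMC (2.24 ± 0.17, adjusted p = 2.50e-06) and HK2 lower (-2.38 ± 0.33, adjusted p = 1.29e-04; -1.16 with the mean of its probes), without overlap for either. ATP1B4, a relative of the sodium pump's beta chain, was lower (-2.83 ± 0.38, adjusted p = 9.87e-05, -1.005 and -1.33 with normexp and in the deposited values, -1.45 with the mean of its probes), and CHP1, a cofactor of sodium-proton exchangers likewise (-0.96 ± 0.15, adjusted p = 3.02e-04).

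Several probes of a carrier mostly gave like differences. Of 52 carriers with more than 1 detected probe, 41 had a range under 1 log2 unit between probes, at a median of 0.35, and 7 had probes of opposite sign. The widest disagreements were those of SLC4A2, given above, and SLC22A4, a carrier of ergothioneine. The SLC22A4 probe used did not pass (-0.17 ± 0.15, adjusted p = 0.319), another differed by 0.08, and the remaining one, which exceeded background on each whole blood array but on none from PBMC, by -4.07. The mean of the SLC22A4 probes was called (-1.39, adjusted p = 1.30e-04), as was the probe used after cyclic loess (-0.53, adjusted p = 0.00887), after median scaling (-0.48, adjusted p = 0.0167) and after quantile normalization (-0.42, adjusted p = 0.028).

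The order of the birds was compared with that of each marker list in both sample types. The mean level of the 9 tested monocyte genes rose in whole blood from bird 1 (-1.65) through birds 2 (-1.25) and 3 (-0.87) to bird 4 (-0.74), and in PBMC from bird 1 (0.39) through birds 2 (0.83) and 4 (1.03) to bird 3 (1.496). The calcium exchangers SLC24A2 and SLC8A1, the fructose carrier SLC2A5 and the sugar phosphate exchanger SLC37A2 had the same order in both. These are 4 of the 102 tested carriers, or 3.92%, against 362 of 33669 features, or 1.08%. No tested carrier had the order of the red cell, T cell, B cell, thrombocyte or heterophil list in both sample types, orders shared by 0.0832%, 0.122%, 0.154%, 0.202% and 0.137% of all features. The likeness was noticed in the values first and rests on 4 birds, so it is a description without a test.

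The background correction moved the size of many differences of the called carriers, not their direction. With normexp 29 of the 79 called carriers moved by over 1.5-fold, all of them to smaller differences, and in the deposited values 26 did. The calls of SLC26A3, SLC27A2 and SLC34A1 ended in both. No called carrier was called in the opposite direction under any of the 25 alternatives. The called carrier SLC39A9 turned to -0.39 with the mean of its probes, without a call (adjusted p = 0.0907).

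**Figure D4:**
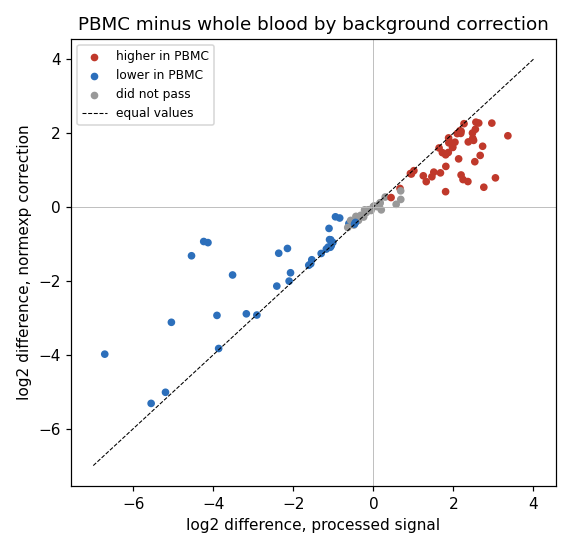
Differences between PBMC and whole blood (log2) of the 102 tested carriers with the processed signal (horizontal axis) and after normexp background correction (vertical axis). The dashed line marks equal values; 29 of the 79 called carriers shrank by over 1.5-fold, and SLC22A23 moved from -6.71 to -3.98.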

How the data were processed

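The authors deposited spot intensities from Agilent Feature Extraction, which had subtracted the background and a spatial trend on each array, per the file headers (version 10.7.3.1; the submitters' processing notes give 10.7.1.1), with no normalization between arrays. The deposited table holds log2 values of 46154 features, each equal to the log2 of the spot's median signal minus 1 constant per array, with column medians of 0.

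Control spots (1319 per array) and outlier spots were left out. Values are log2 processed signals minus the array's 75th percentile, which lay between 663 and 846. Where a gene had several probes, the one with the highest mean over 8 arrays stood for it. Of 60539 probes 18835 carried a name, through a RefSeq table of assembly GRCg7b; 17397 probes with an Ensembl transcript stayed unnamed. The headers name galGal3, so no coordinates are given. Of the carriers 70 were named by accession, 35 by gene number and 30 by symbol. Testing required a probe to exceed background clearly on all 4 arrays of at least 1 group; 92 of 33761 lacked a value on some array, where the fit used the remaining ones. No probe was saturated.

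The test was limma 3.58.1 in R 4.3.3, also run on simulated data. There it recovered 30 of 100 changes of 1 log2 unit and 75 of 100 changes of 2 log2 units. It made 12 false calls, with 33669 features in all. A far smaller share of features was changed in the simulation than was called in the data. The members, substrate classes and lists were chosen with earlier results of these data known. Genes named in the text are, per class and direction, the 2 largest differences among called members detected in both groups and alike in all 4 birds, the 3 largest bounds per direction, a fixed set, of which 1 gene is not reported here, and the 3 largest per direction of 2 other lists; SLC7A14, SLC22A4, SLC8A1, SLC34A1, SLC27A2, SLC27A5, SLC2A8, SLC15A4, SLC38A1 and the genes given only as undetected, untested or not passing were added after their values were seen. The replicate number names the bird, and each bird gave both samples; departures from group means correlated at 0.435, 0.478, 0.359 and 0.417 within birds and at most at 0.044 between birds. Alternatives were normexp (on the median spot signal, since no mean signal is among the columns), the deposited values, quantile, cyclic loess and median scaling, filters, the mean of probes, names by accession only, birds and slide rows as blocks, each row alone, and leaving out each array or bird. Columns of the slide held 1 sample type each, so sample type and column cannot be told apart. No per-sample column was left unused (0).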

Additional observations from a re-analysis of the deposited data

Results flagged for a closer look

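Among the 142 groups of 4 arrays tested (71 named genes in 2 sample types), 4 held a sample far from the other birds, where chance flags about 1 in 20. SLC12A2 stood at -1.23 in whole blood of bird 4, against -0.59 to -0.51 in the other birds. SLC16A8, which no PBMC array measured above background, stood at -6.98 in PBMC of bird 4, against -7.75 in the others. SLC1A6 stood at -2.62 in PBMC of bird 1, against -1.51 to -1.31. SLC46A3 stood at 1.40 in PBMC of bird 3, against 2.15 to 2.18. That sample also had the lowest mean level of the red cell list, and a link was not tested.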

How the results depend on the processing

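With other scalings, background corrections or the mean of probes 42 to 45 of 102 carriers were higher in PBMC and 34 to 40 lower; without a filter 48 were higher and 35 lower of 135, and with all 8 arrays above background 38 and 27 of 84. Naming probes by RefSeq accession only left 64 carriers, of which 30 were higher and 22 lower, since fewer genes were tested. Leaving out an array or a bird gave 42 to 46 higher and 32 to 34 lower. With the bird as a replicate block 46 carriers were higher and 35 lower: the call of SLC34A1 ended and 3 were gained, among them those of SLC27A5 and SLC7A14. With the slide row as a block 44 were higher and 34 lower, in row 1 alone 42 and 33, and in row 2 alone 44 and 29. Over all features, calls ranged from 22200, among the 28356 above background on all arrays, to 29579 of 37242 with names by accession only. Of 1735 values of 71 named genes under 25 alternatives, 1669 kept direction and call. Direction turned in 7, none of them past the threshold: SLC16A1 in slide row 1 alone (0.011), SLC2A8 with median scaling (-0.00977) and with the mean of its probes (-0.32), SLC39A9 with the mean of its probes (-0.39), and SLC7A14 without whole blood replicate 1 (0.38) and without PBMC replicates 2 (0.18) and 4 (0.26), whose range without single arrays was -1.23 to 0.38. SLC27A2 and SLC34A1 lost their call under 16 and 17 alternatives, and SLC27A5 gained one under 7. Dim signals limit sizes: normexp and the deposited values shrink differences near background.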
